A study of Mus musculus with 2 samples.

Results

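The genes of extracellular adenosine handling were followed in mouse CD4 T cells grown toward a CD103+ Th1 or a conventional Th1 state. The 7 genes were Nt5e, Entpd1, Adora2a, Adora2b, Ada, Adk and Slc29a1, and a probe set counted as theirs when the platform annotation gave it exactly that 1 symbol. Of these genes, 5 had at least 1 such probe set, with 14 probe sets among them, out of 18193 named genes and 34945 probe sets with 1 symbol. Adora2a and Adora2b, which encode the adenosine receptors that raise cyclic AMP, were not analysed here, because the annotation used gave them no probe set of their own. The genes were chosen with results of these arrays already known, so their values are a description.

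ATP that leaves a cell is broken down at the cell surface in steps. CD39, encoded by Entpd1, takes ATP and ADP to AMP, and CD73, encoded by Nt5e, takes AMP to adenosine. Adenosine raises cyclic AMP in T cells through the A2 class of receptors and dampens their effector functions. It is cleared by uptake through the equilibrative transporter ENT1 (Slc29a1), by deamination to inosine by adenosine deaminase (Ada) and by phosphorylation to AMP by adenosine kinase (Adk). Regulatory T cells of the mouse are known for carrying both CD39 and CD73.

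Both cultures started from splenic CD4 T cells of wild-type C57BL/6 mice, sorted magnetically and activated through the T cell receptor and CD28 for 2 days, then kept for 3 more days. Cells of the CD103+ Th1 culture received 3 ng/ml TGF-β, 3 ng/ml IL-4 and 10 ng/ml IFN-γ. Cells of the Th1 culture received 1 ng/ml IL-12 together with 1 µg/ml of a blocking antibody to IL-4. CD103 is an integrin chain (αE). The media differ in every one of these additions, so the effect of a single cytokine cannot be told apart, and the labels give neither the age nor the number of the mice. Each condition had 1 Affymetrix array of 45037 probe sets, so no difference has a replicate check and no test was made.

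On such arrays several short probes aimed at 1 transcript form a probe set, which is read out as 1 signal in arbitrary units. Signals of different probe sets are not comparable as levels. Median signals were 78.0 in CD103+ Th1 and 78.8 in Th1. Low signals are mostly background, so the median over both arrays, 78.5, served as a floor. A ratio against a signal under the floor was taken against the floor and is given as "at least". Every ratio is CD103+ Th1 over Th1, and a gene is represented by its brightest measured probe set unless stated otherwise. "Measured" means above the floor on at least 1 array. In bulk RNA, more cells expressing a gene and more RNA per cell cannot be told apart.

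RNA signals for the enzyme pair that makes adenosine were higher in CD103+ Th1, by a wide margin for Nt5e. For Entpd1 the margin depended on the probe set, and on the brightest one it was 1.36-fold. Protein and enzyme activity were not measured. The genes that clear adenosine were slightly lower, each by less than 2-fold. Differences of that size, and of the size seen on the brightest Entpd1 probe set, are common among all genes on these arrays. On the brightest probe sets, Nt5e was the 1 gene of 5 that was higher by 2-fold or more, and 0 were lower by 2-fold or more. Among all 11194 measured genes, 5.04% were higher and 4.87% lower by that factor. The median log2 ratio of the 5 genes was -0.14, beside -0.03 over all measured genes. Of the 14 probe sets, 9 were measured. Of these, 4 were higher by 2-fold or more, 0 were lower by 2-fold or more and 5 lay within 2-fold. The 4 higher probe sets belonged to Nt5e and Entpd1, 2 to each gene. Over all measured probe sets with 1 symbol, 5.02% were higher and 4.19% lower by that factor.

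**Figure D1:**
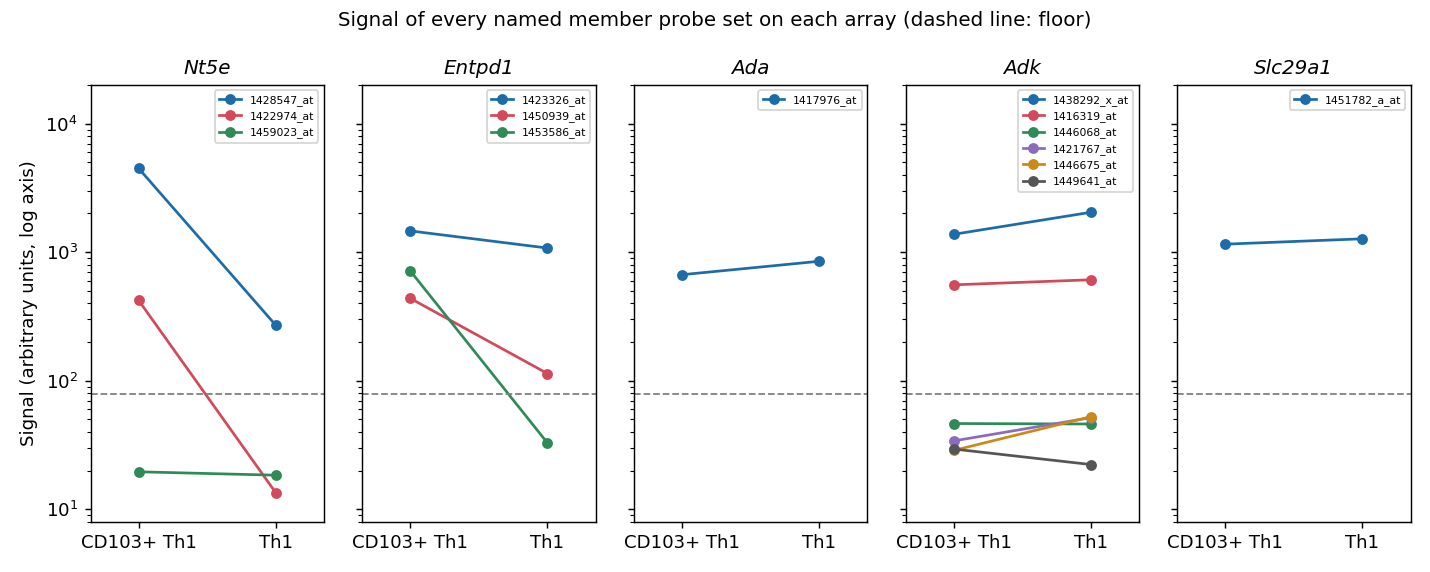
Signal of each of the 14 named probe sets on the CD103+ Th1 array (left) and the Th1 array (right), 1 panel per gene, on a log axis in arbitrary units, with the floor of 78.5 dashed. Lines join the same probe set on both arrays. Steep lines appear in the Nt5e and Entpd1 panels, and the measured probe sets of Ada, Adk and Slc29a1 lie nearly level.

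Nt5e, the CD73 gene, lies on chromosome 9 (GRCm38.p6, chr9:88327609-88372089). Its brightest probe set, 1428547_at, had a signal of 4490 in CD103+ Th1, against 269.6 in Th1, which is 16.7-fold higher (log2 ratio 4.06). Both signals were above the floor. On this probe set Nt5e stood at rank 10 from the top of the 11194 measured genes. The rank is not exact, because ratios of genes under the floor in Th1 are lower bounds. The probe set 1422974_at had a signal of 422 in CD103+ Th1 and 13.4 in Th1. The Th1 signal lay under the floor, so that the difference was at least 5.38-fold (log2 ratio of at least 2.43). With a floor at the 25th percentile of all signals, 21.2, the same probe set gave a log2 ratio of at least 4.31. Both bounds are set by the floor chosen, so they do not show how near this probe set comes to the brighter one. The third probe set, 1459023_at, was under the floor on both arrays, with 19.5 in CD103+ Th1 and 18.4 in Th1, and gave no ratio. Both measured probe sets thus had the higher signal in CD103+ Th1.

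Entpd1, the CD39 gene, lies on chromosome 19 (chr19:40612366-40741602). All 3 of its probe sets had the higher signal in CD103+ Th1, and they differed widely in how much. The brightest, 1423326_at, had a signal of 1463 in CD103+ Th1 and 1076 in Th1, which is 1.36-fold higher (log2 ratio 0.44). The probe set 1450939_at had 437 in CD103+ Th1 and 113.6 in Th1, which is 3.85-fold higher (log2 ratio 1.94). The platform annotation lists the same source accession for both of these, yet their log2 ratios differed by 1.5. The probe set 1453586_at had 715 in CD103+ Th1 and 32.7, under the floor, in Th1, at least 9.12-fold higher (log2 ratio of at least 3.19). On the brightest probe set alone Entpd1 counts as within 2-fold, with 82.5% of measured genes below it. The mean over its 3 probe sets was at least 1.86, past 2-fold, and with such means 2 of the 5 genes were past 2-fold in the higher direction, beside 4.45% of all measured genes.

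Such disagreement within a gene was uncommon on these arrays. Among 1342 genes with 3 measured probe sets, the highest and the lowest log2 ratio of a gene lay a median of 0.45 apart, against at least 2.75 for Entpd1. Only 7 of these genes, Entpd1 included, had a range that wide or wider. The comparison was not limited to genes that differed between the arrays, and a gene with ratios near 0 on all probe sets has a narrow range. Where in the Entpd1 transcripts each probe set lies was not analysed here, and whether the arrays read different transcript forms was not tested.

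**Figure D2:**
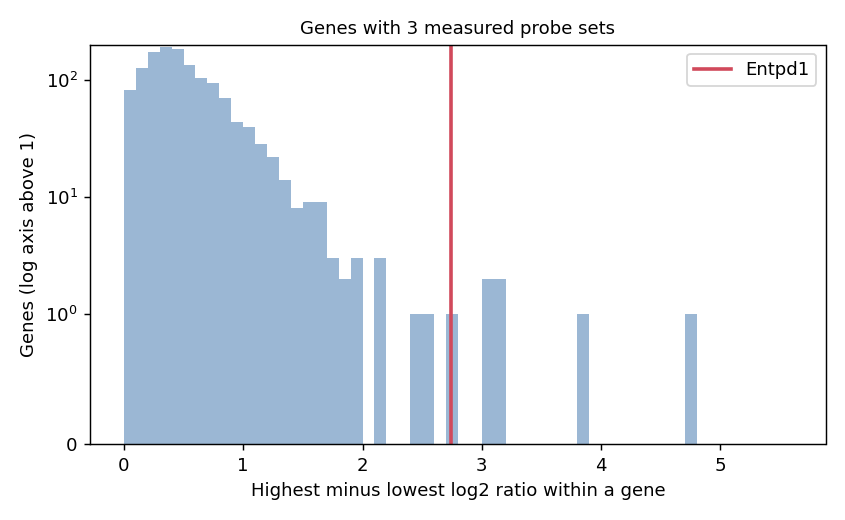
Histogram of the range of log2 ratios (highest minus lowest, horizontal axis) within each of the 1342 genes with 3 measured probe sets, with the number of genes on a vertical axis that is logarithmic above 1. The red line marks Entpd1 at 2.75, far to the right of the median of 0.45.

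The promoters of these 2 genes are shown because theirs were the probe sets past 2-fold. Each run covers 250 bases before to 50 after a start site on the plus strand, from RefSeq (GRCm38.p6). Capitals mark matches on either strand to a SMAD box, the element of the factors below TGF-β (CAGAC), or the core of a cAMP response element (TGACG). The windows are chr9:88327359-88327658 for Nt5e, chr19:40612116-40612415 for the first Entpd1 start and chr19:40659520-40659819 for the second.
Nt5e: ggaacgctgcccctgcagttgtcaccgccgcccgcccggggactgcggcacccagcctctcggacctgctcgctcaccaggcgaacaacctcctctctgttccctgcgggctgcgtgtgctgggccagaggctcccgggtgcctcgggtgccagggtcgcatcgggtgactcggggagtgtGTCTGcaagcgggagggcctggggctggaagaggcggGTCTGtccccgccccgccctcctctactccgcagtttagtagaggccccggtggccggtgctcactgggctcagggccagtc
Entpd1, first start: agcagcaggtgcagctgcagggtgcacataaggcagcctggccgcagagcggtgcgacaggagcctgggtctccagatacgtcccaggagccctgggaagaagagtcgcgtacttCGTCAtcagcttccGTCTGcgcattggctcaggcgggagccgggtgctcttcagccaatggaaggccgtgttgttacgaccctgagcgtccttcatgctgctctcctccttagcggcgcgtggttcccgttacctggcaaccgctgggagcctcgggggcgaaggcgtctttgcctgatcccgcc
Entpd1, second start: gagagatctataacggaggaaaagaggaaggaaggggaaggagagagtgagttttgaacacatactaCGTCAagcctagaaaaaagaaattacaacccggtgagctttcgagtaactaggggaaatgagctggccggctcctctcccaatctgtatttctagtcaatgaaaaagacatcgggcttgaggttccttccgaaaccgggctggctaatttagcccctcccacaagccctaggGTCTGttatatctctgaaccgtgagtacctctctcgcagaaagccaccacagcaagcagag

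The Nt5e window held 2 matches to the SMAD box, both on the minus strand, at positions -69 to -65 and -32 to -28 from the start. Each Entpd1 window held 1 SMAD box match and 1 match to the cAMP response core. Neither motif is rare. Of 32851 promoter windows in the table, 49.6% held a SMAD box and 20.8% the cAMP response core. No match was found in these 3 windows to a STAT6-type element (TTCNNNNGAA), the element of the factor below IL-4, which 6.95% of all windows held. The marked motifs do not overlap one another, and a match describes letters only. SMAD boxes were not limited to Nt5e and Entpd1 among the 7 genes. The Ada and Adora2b windows also held 2 each, the Slc29a1 windows held between 0 and 3 each, and the Adk windows held 0. No window was available for Adora2a. The cAMP response core was not limited to Entpd1 either, with a match in an Adk window and in a Slc29a1 window.

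The genes that remove adenosine lay within 2-fold. Ada (chr2:163726571-163750239) had a signal of 667.5 in CD103+ Th1 and 849 in Th1 on its 1 probe set, 1417976_at. That is 1.27-fold lower in CD103+ Th1 (log2 ratio -0.35). A log2 ratio lower than this was seen in 25% of measured genes.

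Adk (chr14:21052574-21448569) had 6 probe sets, of which 2 were measured. The probe set 1438292_x_at had 1376 in CD103+ Th1, against 2043 in Th1, and was 1.48-fold lower (log2 ratio -0.57). Of all measured genes, 13.9% lay below that ratio. The probe set 1416319_at had 556.8 in CD103+ Th1, against 609.6 in Th1, and was 1.09-fold lower (log2 ratio -0.13). The letter x in the name of 1438292_x_at marks probes that may also bind other transcripts, and 1416319_at carries no such mark. The other Adk probe sets lay between 28.6 and 46.4 in CD103+ Th1 and between 22.3 and 52.4 in Th1, under the floor on both arrays.

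Slc29a1 (chr17:45585200-45599618), for the transporter ENT1, had 1154 in CD103+ Th1 and 1270 in Th1 on its 1 probe set, 1451782_a_at. It was 1.10-fold lower (log2 ratio -0.14), a value with 39.9% of measured genes below it. Ada, Adk and Slc29a1 therefore all had log2 ratios below 0, of a size that is common among all genes on these arrays.

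**Figure D3:**
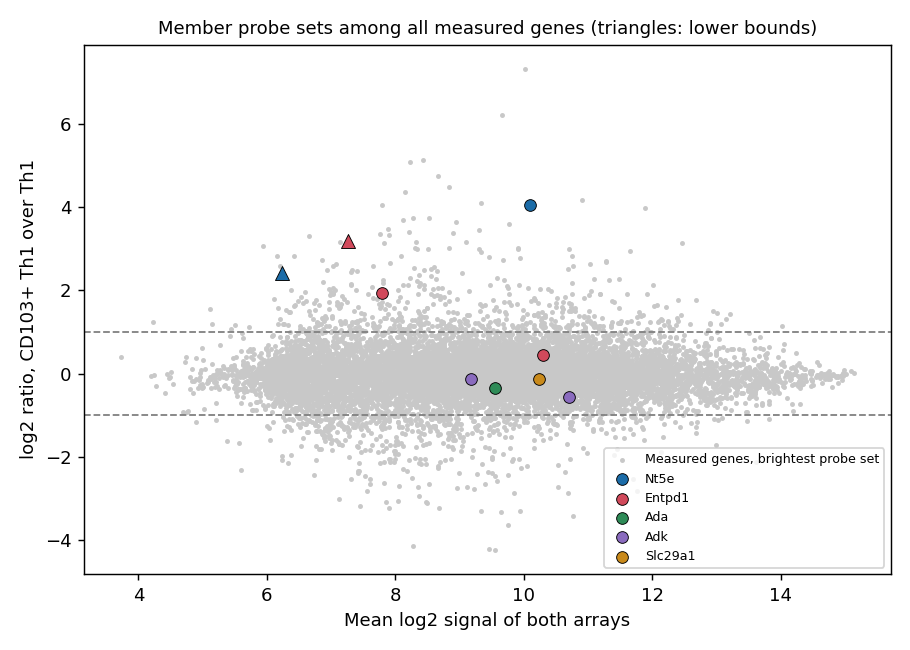
Log2 ratio of CD103+ Th1 over Th1 (vertical axis) against the mean log2 signal of both arrays (horizontal axis) for all 11194 measured genes (grey) and the 9 measured probe sets of the 5 genes (coloured; triangles are lower bounds). Dashed lines mark 2-fold. The brightest Nt5e probe set lies at 4.06 near the upper edge, and Ada, Adk and Slc29a1 lie within the central band.

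The genes whose ratio came nearest to that of Nt5e were taken from 8068 genes that lay above the floor on both arrays and reached 4 times its value on one. With 2 arrays, likeness means only a similar log2 ratio. The 5 nearest were Trgv1, a T cell receptor γ variable segment (4.04), Pmepa1, an inhibitor of TGF-β signalling (4.10), Iigp1, an immunity-related GTPase (3.97), Cd24a, a surface glycoprotein (4.16), and Klf3, a Krüppel-like transcription factor (3.74). Other measured probe sets of Pmepa1 and Klf3 reached down to 0.99 and -0.02, so the likeness of these 2 rests on the probe set taken.

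Other genes of adenosine and ATP biology were grouped by role in lists drawn up with earlier results of these arrays known. Of 91 listed genes, 78 had a named probe set and 56 were measured. Among the 56, 6 were higher in CD103+ Th1 by 2-fold or more (10.7%) and 7 lower (12.5%), beside 5.04% and 4.87% of all genes. Their median log2 ratio was -0.02. The genes did not share 1 direction.

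Among the other ectoenzymes, 4 of 8 named genes were measured, with a median log2 ratio of -0.48. By at least 2-fold, 1 was higher and 1 lower, beside 5.04% and 4.87% of all measured genes. Acpp encodes a prostatic acid phosphatase whose transmembrane form can also turn AMP into adenosine in mouse sensory neurons. It had a signal of 709 in CD103+ Th1, against 156.8 in Th1, and was 4.52-fold higher, but a second probe set of it had a log2 ratio of -0.03. Bst1, for the NAD-consuming ectoenzyme CD157, had 97.3 in CD103+ Th1, against 349.95 in Th1, and was 3.60-fold lower, with another probe set at -0.40. Dpp4, for CD26, which binds adenosine deaminase at the surface of human T cells, was 1.74-fold lower (1179 against 2053). Its 4 probe sets ranged from -0.80 to 0.15. Entpd2, for a relative of CD39 that mainly hydrolyses ATP, had 95.8 in CD103+ Th1 and 106.7 in Th1, both near the floor. Entpd3, Entpd8, Enpp3 and Alpl, the other named ectoenzyme genes, gave signals under the floor on each array, and Cd38 was not analysed here.

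Of the other adenosine receptors and nucleoside transporters, 2 of 4 named genes were measured. Adora3, for the A3 receptor, which lowers cyclic AMP, had 165.9 in CD103+ Th1 and 51.0, under the floor, in Th1, at least 2.11-fold higher. A second Adora3 probe set gave a log2 ratio of -0.08, so the receptor was not uniformly higher. Slc29a3, for an equilibrative transporter of internal membranes, was 1.22-fold higher (554.7 against 453.6). Slc29a2 and Slc28a3, for 2 further nucleoside transporters, stayed under the floor on each array.

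Upstream of the ectoenzymes stand the channels that release ATP and the P2 receptors that sense nucleotides. Here 8 of 19 named genes were measured. In CD103+ Th1, 3 of the 8 were lower and 0 higher by 2-fold or more, beside 4.87% and 5.04% of all measured genes. The median log2 ratio of the 8 was -0.84. P2ry14, a receptor for UDP-glucose, had 306.8 in CD103+ Th1, against 1590 in Th1, a 5.18-fold lower signal. Gja1, for the gap junction protein connexin 43, was 2.44-fold lower (152.6 against 372.9), and all 5 of its measured probe sets were below 0. P2rx3, for an ATP-gated channel, was at least 2.24-fold lower (5.03, under the floor, against 176.0), with another probe set at a log2 ratio of -0.17.

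P2rx7, for the ATP-gated channel whose opening can kill T cells, was 1.97-fold lower, just short of 2-fold (149.7 in CD103+ Th1 and 294 in Th1). Its 3 measured probe sets had log2 ratios from -1.37 to -0.89, all below 0. P2rx4, for another ATP-gated channel, was 1.63-fold lower, with its 3 measured probe sets at -0.71 or below. Of the 3 genes above 0, P2ry10, for a lysophospholipid receptor of the same family, was 1.93-fold higher (6160 against 3196). Panx1, for the pannexin channel that releases ATP, was 1.31-fold higher (1400 against 1072), and P2ry4 was near the floor.

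**Figure D4:**
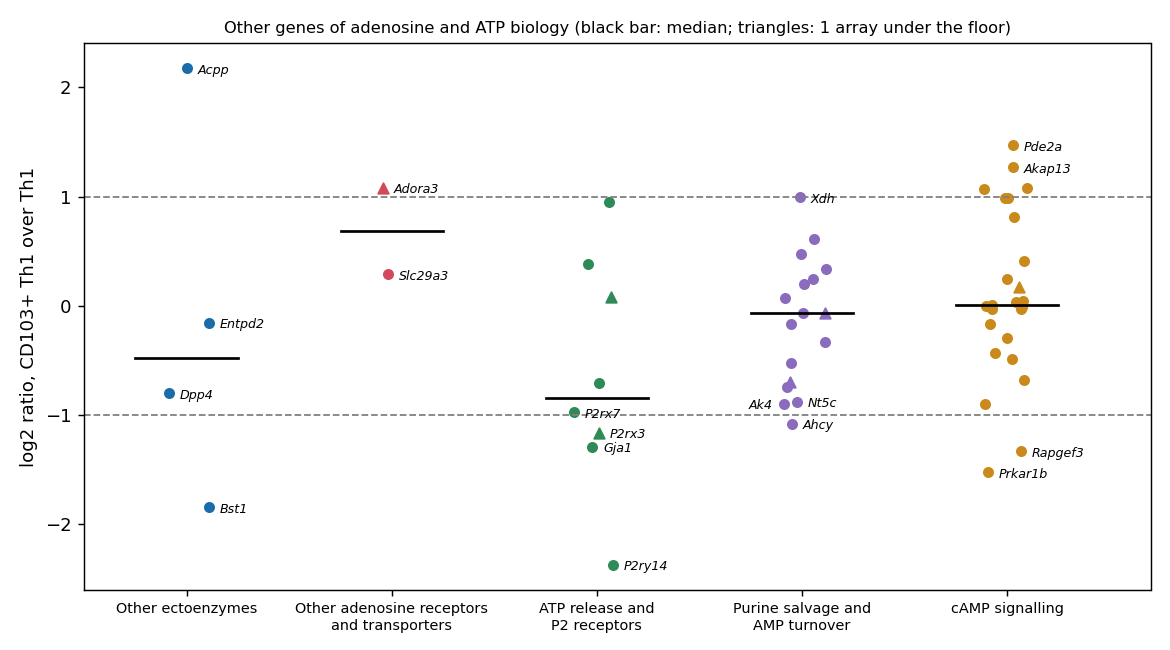
Log2 ratio of CD103+ Th1 over Th1 (vertical axis) for each of the 56 measured genes in 5 lists of adenosine and ATP biology, 1 point per gene, with triangles where 1 array was under the floor, black bars at list medians and dashed lines at 2-fold. Up to 4 genes with the largest absolute ratio are named per list. The medians run from -0.84 for ATP release and P2 receptors to 0.69 for the 2 measured receptor and transporter genes.

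Inside the cell, adenosine and its products enter purine salvage. In this list 17 of 19 named genes were measured, 16 of them within 2-fold, and the median log2 ratio was -0.07. The exception was Ahcy, for the enzyme that frees adenosine from S-adenosylhomocysteine, with 5515 in CD103+ Th1 against 11684 in Th1, a 2.12-fold lower signal. Xdh, for xanthine dehydrogenase, which makes uric acid, was 1.99-fold higher (2601 against 1308). Ak4, for a mitochondrial adenylate kinase, was 1.86-fold lower (1189 against 2213). Nt5c, for a cytosolic nucleotidase, was 1.84-fold lower (2149 against 3947). Pnp, for the phosphorylase that acts on inosine after adenosine deaminase, was 1.05-fold higher (4436 against 4215).

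Below the A2 receptors, adenosine acts through Gs, adenylyl cyclase and protein kinase A. In the cyclic AMP list 25 of 28 named genes were measured. Of these, 4 were higher and 2 lower by 2-fold or more, beside 5.04% and 4.87% of all measured genes. The other 19 lay within 2-fold, and the median log2 ratio of the 25 was 0.01. Pde2a, for a phosphodiesterase that degrades cyclic AMP and cyclic GMP, had 2305 in CD103+ Th1, against 831 in Th1, a 2.77-fold higher signal, and the 3 probe sets ranged from 1.47 to 2.52. Akap13, for a protein kinase A anchor, was 2.41-fold higher by its brightest probe set (8382 against 3477), and 6 probe sets ranged from 0.12 to 1.65. Prkar1b, for a regulatory subunit of the kinase, was 2.88-fold lower by its brightest probe set (270.6 against 779). Its 5 probe sets ranged from -1.53 to -0.28, with a mean of -0.91, within 2-fold. Rapgef3, for the cyclic AMP sensor EPAC1, was 2.52-fold lower (78.7, at the floor, against 198.6), and all 3 of its probe sets were below -1. The other higher genes, named after their values were seen, were Adcy7, for an adenylyl cyclase of lymphocytes (2.09-fold), and Pde4b (2.11-fold). For Pde4b the 3 measured probe sets gave log2 ratios between 0.72 and 1.08, and their mean of 0.94 is within 2-fold. Gnas, for the Gs protein itself, had 12915 in CD103+ Th1 and 12572 in Th1.

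Markers of cell types known to carry CD39 and CD73 were in part higher in CD103+ Th1 too. Of 8 regulatory T cell markers, 7 had a named probe set, and 7 were above the floor in CD103+ Th1 and 5 in Th1. Their signals summed to 34692 in CD103+ Th1, against 27627 in Th1. Sums here and below lean toward the brightest probe sets and do not measure how many cells of a type were present. Tnfrsf18 alone had 14111 in CD103+ Th1 and 17307 in Th1. Among the 7 markers, 5 were higher and 0 lower by 2-fold or more, beside 5.04% and 4.87% of all measured genes. Foxp3 had 1615 in CD103+ Th1 and 50.03, under the floor, in Th1, and Ikzf2 had 1433 in CD103+ Th1 and 653.6 in Th1. Il2ra and Tnfrsf18 were within 2-fold. The part of these cells in the Nt5e and Entpd1 ratios was not tested.

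Of 8 B cell markers, 7 had a named probe set. Of these, 2 were above the floor in CD103+ Th1 and 1 in Th1. The signals of those 2 summed to 341 in CD103+ Th1, against 191 in Th1. The defining markers Ms4a1, Cd79a, Pax5, Ebf1 and Cr2 were under the floor on both arrays. Cd79b had 244 in CD103+ Th1, against 75.8, under the floor, in Th1, and Blk had 96.8 in CD103+ Th1, against 115.3 in Th1. Of 8 myeloid markers, 2 were above the floor in CD103+ Th1 and 3 in Th1. The signals of the 3 measured ones summed to 278.5 in CD103+ Th1, against 499 in Th1. Both measured CD8 T cell markers were higher in CD103+ Th1 by 2-fold or more, beside 5.04% of all measured genes. Their signals summed to 3647 in CD103+ Th1 against 1163 in Th1, in cultures begun from magnetically sorted CD4 T cells. The 5 measured Cd8a probe sets ranged widely, with log2 ratios from 0.24 to 2.16. The part of CD8 T cells in the Nt5e ratio was not tested. All 7 genes listed for CD4 T cells with a named probe set were above the floor on both arrays and within 2-fold. Of these, Cd4 alone separates CD4 from CD8 T cells, and the others mark T cells of both kinds. Cd4 had 1081 in CD103+ Th1 and 973 in Th1.

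The ratios of the 5 genes were set against other ways of scaling the arrays, other floors and other choices of probe set. Nt5e kept a log2 ratio of at least 3.24 in all of the 8 alternatives, and Ada and Adk stayed between 0 and -1 in each. Entpd1 was past 2-fold in 1 alternative alone, the mean of its measured probe sets. The other alternatives all read its brightest probe set, which lay above every floor used on both arrays. They could hardly move its ratio and do not bear on its other probe sets. Ada and Slc29a1 have 1 probe set each, also above every floor used on both arrays. Their steady ratios were thus nearly fixed in advance and are not a check.

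**Figure D5:**
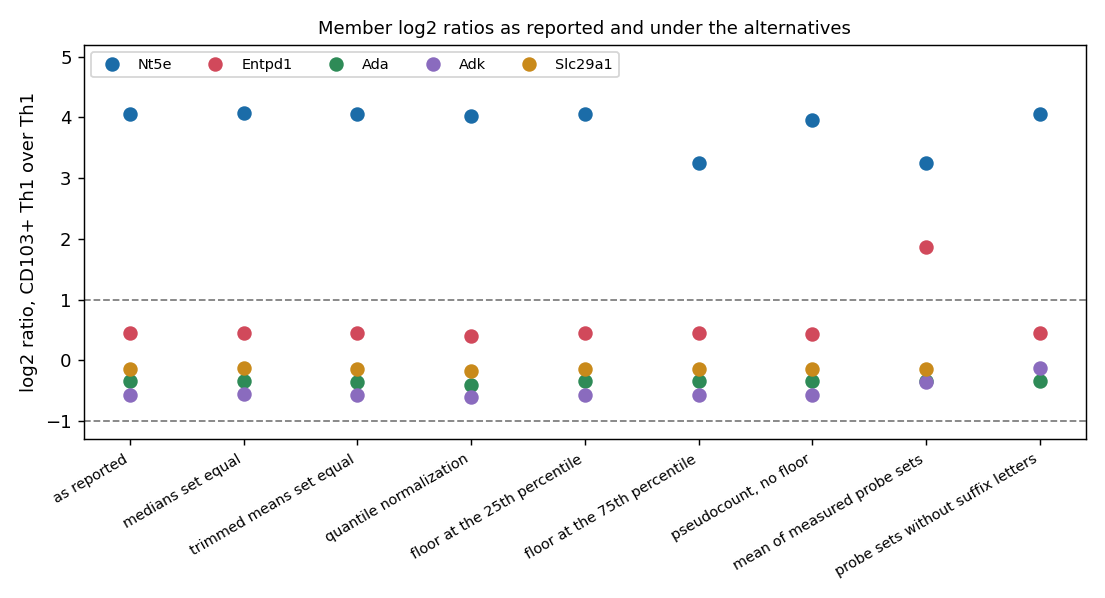
Log2 ratio of CD103+ Th1 over Th1 (vertical axis) of the 5 genes, as reported and under 8 alternatives of scaling, floor and probe set choice (horizontal axis), with dashed lines at 2-fold. Nt5e lies between 3.24 and 4.07 throughout, and Entpd1 moves from 0.44 to 1.86, a lower bound, when its probe sets are averaged. Slc29a1 has no point where probe sets with suffix letters are left out.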

How the data were processed

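Gene expression was measured in 2 cultures with 1 Affymetrix array each. The values are the authors' deposited signal intensities on a linear scale, with 1 per probe set on each array. Per the submitters' processing notes the authors used the GCOS software, with no version given, and their scaling target is not given in the sources used here. Trimmed means (2%) were 497.8 in CD103+ Th1 and 497.6 in Th1, so the signals were used as deposited.

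Gene names came from the platform annotation and were brought up to GRCm38.p6 symbols by gene identifier. Of 45037 probe sets, 34945 had 1 symbol, 932 several and 9160 none, and 34741 matched the gene table. The floor was the median signal over both arrays, and calls used 2-fold. Python 3.11.15 with numpy 2.4.6 and pandas 2.3.3 was used, and the steps were tested on simulated data. With 1 array per group there is no test, no error estimate and no detection call, and the number of arrays limits the precision. All 14 named probe sets of the 5 genes were reported. Of each pathway list up to 4 measured genes with the largest absolute ratio were named, with Pnp, Dpp4, Cd38 and P2rx7. Other genes were added after their values were seen. These are P2rx4, P2ry10, P2ry4, Panx1, Gnas, Pde4b, Adcy7, the members named as under the floor and the cell type markers named. Members and lists were chosen with earlier results of these data known. Promoters were searched by exact match on both strands. A further motif search is not reported here.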

Additional observations from a re-analysis of the deposited data

How the results depend on the processing

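Gene counts past 2-fold, single-gene ratios and the median over the 5 genes were recomputed. The scalings were medians set equal, trimmed means set equal and quantile normalization. Floors lay at the 25th and 75th percentiles, or a pseudocount replaced the floor. The probe set choices were the mean of measured probe sets and probe sets without suffix letters. For counts, thresholds of 1.5-fold and 4-fold were also used. Probe set counts, the Entpd1 range, the Nt5e rank, nearest genes, list medians and marker sums were not recomputed. The Entpd1 probe set 1453586_at gave 4.45 with the 25th percentile floor and at least 0.60 with the 75th. The Nt5e log2 ratio moved to 3.25 with the floor at the 75th percentile, where it is a bound because the Th1 signal falls under that floor, and to 3.24 with the mean of probe sets, which averages a bound. With that mean, 2 of the 5 genes were at least 2-fold higher, and Entpd1 was at least 1.86. In all other alternatives, which read Entpd1 on its brightest probe set alone, 1 of the 5 genes was past 2-fold in the higher direction. In the lower direction it was 0 in every alternative. Without suffix letters Slc29a1 drops out, and the median of the remaining genes was 0.16. The other pathway genes counted 2 lower with the floor at the 75th percentile, 12 higher and 16 lower at 1.5-fold, and 1 higher and 1 lower at 4-fold. Over all genes, higher and lower counts were 974 and 1206 with the floor at the 25th percentile, 267 and 199 with it at the 75th, 1391 and 1499 at 1.5-fold, and 108 and 86 at 4-fold, against 564 and 545 as reported. None of the 5 genes changed sign in any alternative, though the alternatives could hardly move the ratios of Ada and Slc29a1. Of 22 other pathway and marker genes past 2-fold, 0 changed sign. Pde4b was within 2-fold with the mean of probe sets (0.94), and Prkar1b with that mean (-0.91) and without suffix letters (-0.28). Values under 2-fold for Acpp, Adora3 and P2rx3, and for Prkar1b with the floor at the 75th percentile, are bounds or averages that include a bound. They do not by themselves place these genes within 2-fold. For Acpp, Adora3 and P2rx3 the call past 2-fold rests on 1 probe set, with the other measured one at -0.03, -0.08 and -0.17 in that order. Genes under a raised floor on both arrays gave no value there. No paired analysis was possible because each condition had 1 array. Low signals limit the ratios: with the floor at the 75th percentile, 472, the weaker Nt5e probe set and the Entpd1 probe set 1450939_at are under it on both arrays.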
